A study of Mus musculus with 24 samples.

Results

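The genes described here are 10 transcription regulators of mouse pancreatic islets: the Jun family (Jun, Junb, Jund), the Fos family (Fos, Fosb, Fosl1, Fosl2), the related factor Atf3, and the immediate early genes Egr1 and Ier2. They were found by NCBI Gene number among the 28059 genes of the deposited RPKM table (reads scaled by gene length and by the mapped reads of the library), and each of the 10 has a row. Islets came from mice aged 3 to 4 months on a mixed background and were cultured and handpicked before RNA was taken. The libraries fall into 2 sets by their sample numbers. In set 1, 4 libraries came from mice with Cop1fl/fl and Pdx1.CreERT2 that also carried Etv4ko/ko and the floxed alleles Etv1fl/fl and Etv5fl/fl (below Cop1 Etv1/4/5 deletion), 3 from mice with Cop1 fl/fl and Pdx1.CreERT2 (Cop1 deletion) and 3 from mice labelled Cop1 fl/fl with no Cre named (control); 2 further samples of this set, 1 labelled Cop1 deletion and 1 control, could not be tied to a column and were not analysed here. In set 2, 4 libraries came from mice with Cop1fl/fl and Pdx1.CreERT2 that also carried Etv4ko/+ and Etv5fl/fl (below Cop1 Etv4/5 deletion), 4 from Cop1 deletion and 4 from control mice labelled as in set 1. Every group therefore carries floxed Cop1, and 1 Etv4 allele was left in the Etv libraries of set 2. CreERT2 is a Cre recombinase fused to a part of the estrogen receptor and is active once tamoxifen binds it; the Pdx1 promoter drives it in β cells but also in other cells of the islet and, during development, of the pancreas. The ko alleles of Etv4 are, by their label, not conditional on Cre.

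AP-1 is a family of dimers that bind DNA through a basic region and a leucine zipper. Jun proteins pair with each other or with Fos proteins, whereas Fos proteins need a Jun partner, and Atf3 can pair with Jun proteins. Fos, Fosb, Jun, Junb, Egr1, Ier2 and Atf3 are immediate early genes: signals such as growth factors, calcium, cyclic AMP and cell stress switch them on within minutes and their messages decay fast, while Jund is more steadily expressed in many tissues. In β cells, glucose and depolarization are known to induce several of them. COP1 is the substrate receptor of a ubiquitin ligase, and JUN and the ETS factors ETV1, ETV4 and ETV5 are among the proteins that it marks for degradation; the libraries measure messages and not these proteins.

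Stretches upstream of the transcription start are shown for 4 of the 10 genes, chosen because these genes had large differences in level between the sets. They are the 250 bases before the start in RefSeq, build GRCm38.p6, written 5′ to 3′ along the gene. Capitals mark the letters TGACG on either strand (the core of the cyclic AMP response element, to which CREB and ATF factors bind; CGTCA on the other strand), TGACATCA (a variant of that element) and TATAAA (the TATA box).
Fosb, chr7:19310046-19310295, minus strand: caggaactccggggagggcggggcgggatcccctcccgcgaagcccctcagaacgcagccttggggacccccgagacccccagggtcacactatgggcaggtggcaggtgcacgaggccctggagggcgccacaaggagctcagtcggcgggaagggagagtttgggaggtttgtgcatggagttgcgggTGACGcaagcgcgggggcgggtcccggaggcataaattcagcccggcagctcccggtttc
Fos, chr12:85473640-85473889, plus strand: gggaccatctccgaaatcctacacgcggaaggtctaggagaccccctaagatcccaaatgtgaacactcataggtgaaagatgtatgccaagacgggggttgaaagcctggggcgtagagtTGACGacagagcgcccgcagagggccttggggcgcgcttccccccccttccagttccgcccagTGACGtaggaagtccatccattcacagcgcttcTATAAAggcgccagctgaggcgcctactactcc
Jun, chr4:95052223-95052472, minus strand: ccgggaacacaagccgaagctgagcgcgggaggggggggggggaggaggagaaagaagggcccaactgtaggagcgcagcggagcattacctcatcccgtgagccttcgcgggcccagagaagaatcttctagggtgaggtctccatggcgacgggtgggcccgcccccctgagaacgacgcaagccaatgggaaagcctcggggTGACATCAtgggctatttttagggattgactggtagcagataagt
Atf3, chr1:191183334-191183583, minus strand: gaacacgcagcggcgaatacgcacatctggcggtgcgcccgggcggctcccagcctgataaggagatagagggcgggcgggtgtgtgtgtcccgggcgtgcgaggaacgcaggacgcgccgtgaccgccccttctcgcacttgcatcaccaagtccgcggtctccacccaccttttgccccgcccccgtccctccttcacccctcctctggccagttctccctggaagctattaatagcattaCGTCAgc
RefSeq promoters were searched for 7 of the 10 genes (Jun, Junb, Jund, Fos, Fosb, Fosl2 and Atf3). Those of Egr1, Fosl1 and Ier2 were not searched, so the counts out of 7 leave these genes out and say nothing of their promoters. TGACG stood in 4 of these 7, Fos, Fosb, Junb and Atf3, against 17.8% of 32851 mouse promoters of the same length searched on both strands. In Fos it began 129 and 66 bases before the start, in Fosb 60 bases, in Junb 106 bases and in Atf3, on the other strand, 7 bases. The whole palindrome TGACGTCA, which contains TGACG, was in 0 of the 7 and in 1.55% of all promoters. TGACATCA stood in Jun alone among the 7, 45 bases before the start, and in 2.93% of all promoters. TATAAA stood in Fos alone among the 7, 33 bases before the start, and in 12.4% of all promoters. The AP-1 site TGANTCA, which AP-1 dimers bind, was in 0 of the 7 windows (6.75% of all promoters), as were the CArG box bound by the serum response factor (1.47%) and the ETS core CCGGAA (3952 of 32851 promoters). GCGNGGGCG, the site bound by EGR factors, was in Fosb and Fosl2 (4.7% of all promoters), 50 and 79 bases before the start. These matches describe letters in the window and say nothing of binding in islets.

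The 10 set 1 libraries summed to between 569486 and 664207 RPKM over all genes, and the 12 set 2 libraries to between 524289 and 682560 RPKM. Read depth, estimated from low RPKM values and given relative to the deepest library, ranged from 0.33 to 0.525 over set 1 libraries and from 0.758 to 1 over set 2 libraries. The targeted gene Cop1 was at 0.719 to 1.04 RPKM in Cop1 Etv1/4/5 deletion, 0.984 to 1.13 in Cop1 deletion and 1.22 to 1.55 in control libraries of set 1, and at 0.77 to 0.856, 0.763 to 0.934 and 1.43 to 1.87 RPKM in the same groups of set 2. Esr1, whose reads can come from CreERT2, was at 43.98 RPKM or more in every library labelled with Cre. It was at 99.1 RPKM in the library labelled set 1 control replicate 2, against 0.169 and 0.191 RPKM in the other 2 controls of the set, and Cop1 in that library was the lowest of the 3 at 1.22 RPKM. This library goes against its label by Esr1, so many set 1 results for the 10 genes are also given without it. The ratios, the spread within groups, the comparison of patterns and most list counts include it. Beta cell markers summed to 165186 to 297739 RPKM over all libraries, and none of the marker lists for beta, other endocrine, acinar, ductal, immune or endothelial and stromal cells had a gene at 0 in every library. Since whole islets were sequenced, fewer cells of a type and less RNA per cell cannot be told apart.

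The largest differences in these genes lay between the sets and not between genotypes. Fosb, a Fos family member, had a median of 970 RPKM over set 1 and 0.466 RPKM over set 2, the largest gap of medians on the log2 scale (9.97) among the 14342 genes tested. Fosb reached 1 RPKM in 11 libraries, of which the only one of set 2 was control replicate 4 (2.05 RPKM). It thus passed the filter for testing through set 1, where it was high, and its rank is a description and not a test. Fos ranked 13th, Atf3 15th, Egr1 28th, Jun 41st, Junb 133rd, Jund 161st, Ier2 215th, Fosl1 340th and Fosl2 662nd by the same gap. For 8 of the 10 genes, every library of set 1 lay above every library of set 2, whereas 10.6% of all tested genes did so; Fosl1 and Fosl2 were the exceptions.

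**Figure D1:**
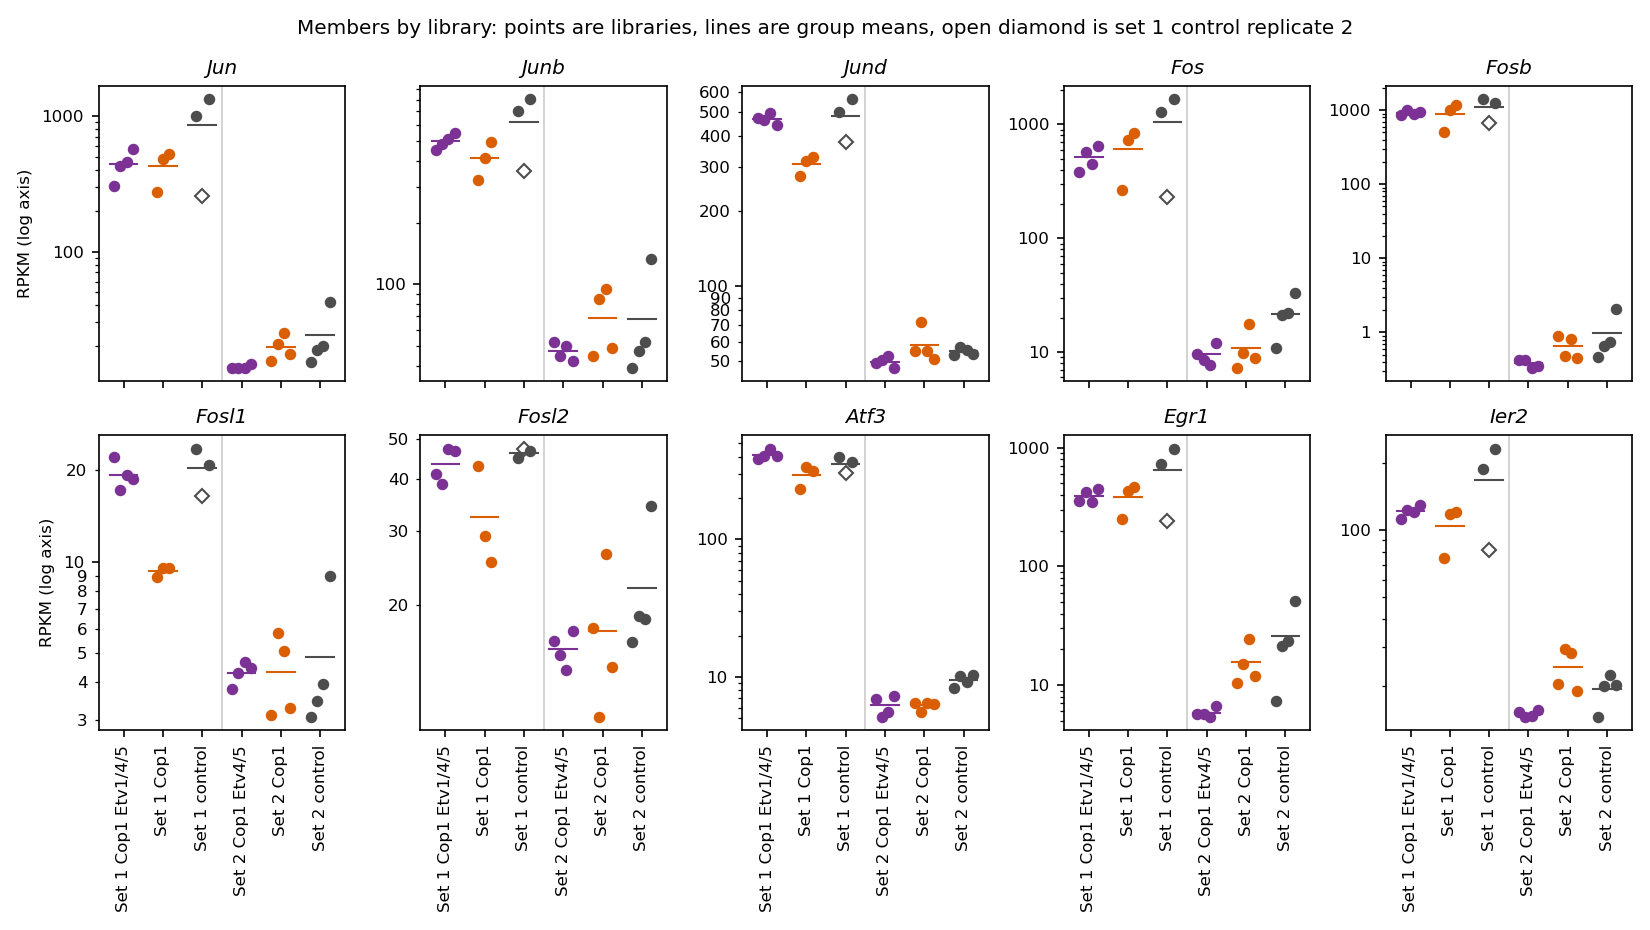
RPKM of each of the 10 genes (log axis, one panel per gene) in every library, by set and genotype, with Etv deletion, Cop1 deletion and control from left to right in each set; horizontal lines are group means and the open diamond is the library labelled set 1 control replicate 2. Set 1 lies above set 2 in every panel, with overlap in Fosl1 and Fosl2, and the open diamond is the lowest set 1 control for 9 of the 10 genes.

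Fosb was at 870, 1004, 880 and 940 RPKM in Cop1 Etv1/4/5 deletion, 507, 1001 and 1156 RPKM in Cop1 deletion and 1395, 675 and 1241 RPKM in control libraries of set 1. In set 2 it was at 0.423, 0.427, 0.335 and 0.355 RPKM in Cop1 Etv4/5 deletion, 0.884, 0.474, 0.818 and 0.45 RPKM in Cop1 deletion and 0.458, 0.648, 0.742 and 2.05 RPKM in control libraries. The lowest set 1 library thus stood 247-fold above the highest set 2 library. Fos, the founding Fos family member, was at 382, 578, 450 and 651 RPKM in Cop1 Etv1/4/5 deletion, 268, 726 and 838 RPKM in Cop1 deletion and 1275, 229 and 1660 RPKM in control libraries of set 1. In set 2, Fos was at 9.72, 8.62, 7.75 and 12.1 RPKM in Cop1 Etv4/5 deletion, 7.33, 9.93, 17.6 and 8.96 RPKM in Cop1 deletion and 10.8, 21.3, 22.3 and 32.8 RPKM in control libraries. All 3 groups of set 1 exceeded all 3 of set 2, and the 3 set 1 controls spread over a wider range than the other set 1 groups.

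The comparison of the 2 control groups, which share a labelled genotype, was added after these values were seen. Genes were called where the p of limma, with Benjamini-Hochberg adjustment over all 14342 genes at 1 RPKM or more in at least 4 libraries, was under 0.05. On this basis 10 of the 10 genes were higher in set 1 controls than in set 2 controls, against 20.9% of all tested genes called higher and 37.9% called lower. The log2 fold changes were 9.59 for Fosb (SE 0.3, adjusted p = 1.8e-15), 5.24 for Fos, 5.15 for Atf3, 4.95 for Jun and 4.71 for Egr1. They were 3.28 for Junb, 3.10 for Jund, 2.97 for Ier2, 2.06 for Fosl1 and 1.12 for Fosl2 (SE 0.245, adjusted p = 0.00069). Because Fosb passed the filter through set 1, its adjusted p is no independent support for its gap. Ccdc85b, a gene whose span overlaps that of Fosl1, was 1.38 higher. The median over the 10 genes was 3.99, against -0.145 over all genes tested. Without set 1 control replicate 2 it was 4.45 with 10 of 10 called higher, against 2809 of the 14327 genes tested in that fit. Xist, the noncoding RNA of the silenced X in female cells, was at 51.6 to 62.9 RPKM in the set 2 controls. It was at 0.0136, 0.027 and 32.7 RPKM in set 1 control replicates 1, 2 and 3, so the control groups also differ in Xist. Sample numbers, depth, mice and Xist differ between these groups together, so their parts in this gap cannot be told apart. Of the cell type markers, 6 of 8 beta cell, 4 of 11 acinar, 5 of 11 immune, 2 of 9 ductal, 2 of 11 endothelial and stromal and 0 of 8 other endocrine markers were also higher in set 1 controls, and 1, 0, 1, 4, 2 and 2 of them lower.

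Other gene groups of the same pathways did not move alike between the controls of the 2 sets. Of 38 other immediate early genes, 28 were higher in set 1 controls and 2 lower, with a median log2 fold change of 2.21. Of all tested genes, 20.9% were called higher and 37.9% lower. Egr3 and Egr4, at most 0.948 and 0.0228 RPKM in set 2, passed the filter only through set 1, where they were high. Arc had a set 2 median of 0.856 RPKM, under the 1 RPKM of the filter. The count of this list is therefore a description and no independent support for the gap. Among the 38, Arc, a synaptic immediate early gene, was 6.84 higher on the log2 scale (SE 0.303, limma adjusted p = 4.2e-13). Nr4a1, an orphan nuclear receptor, was 5.22 higher (SE 0.223, limma adjusted p = 2.4e-13). Srf, the serum response factor that binds the CArG box, was 3.08 higher and Csrnp1, a nuclear protein induced with them, 2.99 higher. Heat shock genes were higher in 10 of 10 cases, with a median of 2.72. The cochaperones Hsph1 (3.36) and Dnajb1 (5.57) had the smallest adjusted p. The near-identical copies Hspa1a (7.37) and Hspa1b (7.41), between which reads may be split, had the largest fold changes. Their set 2 medians, 0.444 and 0.584 RPKM, also lay under the filter, so their calls are no independent support for the gap. The summed RPKM of this list was 1030 to 1499 in Cop1 Etv1/4/5 deletion, 1663 to 1871 in Cop1 deletion and 1758 to 3194 in control libraries of set 1. In set 2 that sum was 121 to 131, 124 to 157 and 128 to 200 RPKM in the same order, and its part in the gap of the AP-1 genes was not tested.

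The kinases and cofactors that act upstream of these genes showed no such shift. Of 23 tested, 1 was higher and 6 lower, with a median of -0.159; Mapk3, which encodes ERK1, was 0.42 higher (adjusted p = 0.00034) and Mapk14, which encodes p38α, was -0.38 on the log2 scale (adjusted p = 6.2e-05). Of 21 tested AP-1 partners and related bZIP factors, 5 were higher and 10 lower (median -0.209), with the small Maf factor Maff at 1.89, the repressor Nfil3 at 1.80, Crem at -1.09 and Creb3 at -0.72. Of 17 tested genes known as AP-1 targets in other tissues, 2 were higher and 8 lower (median -0.881). By share, 23.8% of the bZIP list was higher and 47.6% lower, and 11.8% of the target list higher and 47.1% lower. All tested genes gave 20.9% higher and 37.9% lower, with a median of -0.145. The bZIP list lay near these values, whereas the target list had a lower median and a smaller share higher. The growth factor Hbegf (2.14) and the cytoskeletal linker Ezr (1.26) were higher, whereas Hmox1, heme oxygenase 1 (-2.84), was lower.

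**Figure D2:**
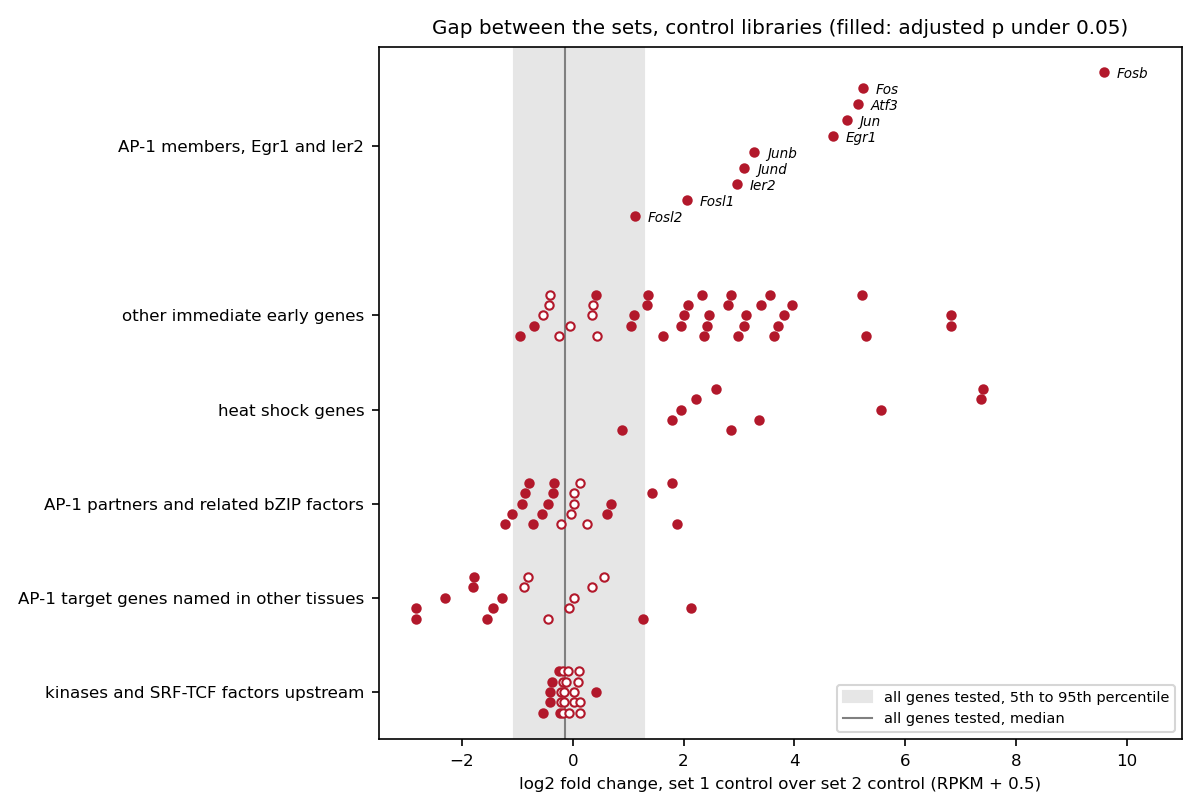
Log2 fold change of set 1 control over set 2 control libraries (horizontal axis) for the 10 genes, named, and for the genes of 5 other lists, 1 point per gene; filled points passed an adjusted p of 0.05, the grey band holds the 5th to 95th percentile of all genes tested and the grey line their median of -0.145. The 10 genes run from 1.12 for Fosl2 to 9.59 for Fosb, and the upstream kinases lie near the median of all genes.

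RPKM is per length, so the levels of the 10 genes can be set side by side. By median over the libraries of set 1, their order was Fosb at 970, Fos at 615, Junb at 492, Jun at 469, Jund at 452, Egr1 at 426, Atf3 at 374, Ier2 at 121, Fosl2 at 43.9 and Fosl1 at 17.9 RPKM. From Fosb down to Atf3 the range of each gene over the libraries overlapped that of the next, whereas Ier2, Fosl2 and Fosl1 each lay wholly below the gene before it. In set 2 the order began with Jund at 53.2, Junb at 49.4, Ier2 at 19.6, Fosl2 at 16.9 and Jun at 16.6 RPKM. It ended with Egr1 at 11.2, Fos at 10.4, Atf3 at 6.73, Fosl1 at 4.13 and Fosb at 0.466 RPKM. Fosb was thus first of the 10 in set 1 and last in set 2, and its range in set 2 (0.335 to 2.05 RPKM) lay below that of every other gene of the 10. Of the other neighbours in the set 2 order, Junb and Ier2 did not overlap and the rest did.

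The mix of family members within a library differed between the sets as well. The summed RPKM of the 4 Fos family genes over that of the 3 Jun family genes lay between 0.942 and 1.51 in set 1 libraries and between 0.153 and 0.36 in set 2 libraries. Fosb over Fos lay between 0.748 and 2.94 in set 1 libraries and between 0.0293 and 0.121 in set 2 libraries, with no overlap. Jun over Jund lay between 0.653 and 2.37 in set 1 libraries and between 0.264 and 0.789 in set 2 libraries, where set 2 control replicate 4 had the top value and the other libraries of set 2 reached 0.452. These ratios describe messages in single libraries and carry no test.

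Libraries of one labelled genotype varied widely in some of these genes and little in others. The pooled SD within groups of set 1, on the log2 scale, was 0.983 for Fos, 0.765 for Jun, 0.638 for Egr1, 0.478 for Ier2 and 0.457 for Fosb, at percentiles 99.5, 98.9, 98.4, 97.3 and 97.1 of all tested genes. Jund (0.176), Fosl1 (0.17) and Atf3 (0.195) lay between percentiles 73.3 and 79.7, and the median over all genes was 0.115. These SDs include set 1 control replicate 2, which goes against its label and had Fos at 229 RPKM, against 1275 and 1660 RPKM in the other controls. No SD was computed without that library, so its part in the set 1 spread was not tested. In set 2 the SD was 0.712 for Egr1 and 0.558 for Junb (percentiles 97.5 and 94.8), and 0.135 for Jund and 0.16 for Atf3 (percentiles 33.8 and 45.5). With all libraries in, a change of a given size in Fos, Jun or Egr1 was therefore measured with more error than one in Jund or Atf3.

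Within a group, single libraries were high or low in many of the 10 genes at once. The share of all tested genes for which each library was highest or lowest was not counted. Whether the counts below are particular to the 10 genes was therefore not tested. The library labelled set 1 control replicate 2 was the lowest of its 3 controls for 9 of 10 genes, all but Fosl2. Set 1 Cop1 deletion replicate 2 was the lowest of its group for 9 of 10 genes and replicate 4 the highest for 8. Set 2 control replicate 1 was the lowest of its group for 10 of 10 genes, and replicate 4, which had the lowest total RPKM of all libraries (524289), was the highest for 8. In set 2 Cop1 deletion, replicate 3 was the highest for 6 genes, and replicates 2 and 3 both lay above replicates 1 and 4 in Jun, Junb, Fos, Fosl1, Egr1 and Ier2. These 2 libraries had Xist, the noncoding RNA that coats the silenced X, at 0.0627 and 0.0345 RPKM, against 74.2 and 48.3 RPKM in replicates 1 and 4; Xist was chosen after its values were seen. They also had the higher sums of immune markers, 494 and 318 RPKM against 235 and 202 RPKM, and of endothelial and stromal markers, 278 and 325 RPKM against 109 and 176 RPKM. The summed AP-1 target genes were likewise at 564 and 700 RPKM against 353 and 433 RPKM, and the part of any of these in the AP-1 genes was not tested.

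**Figure D3:**
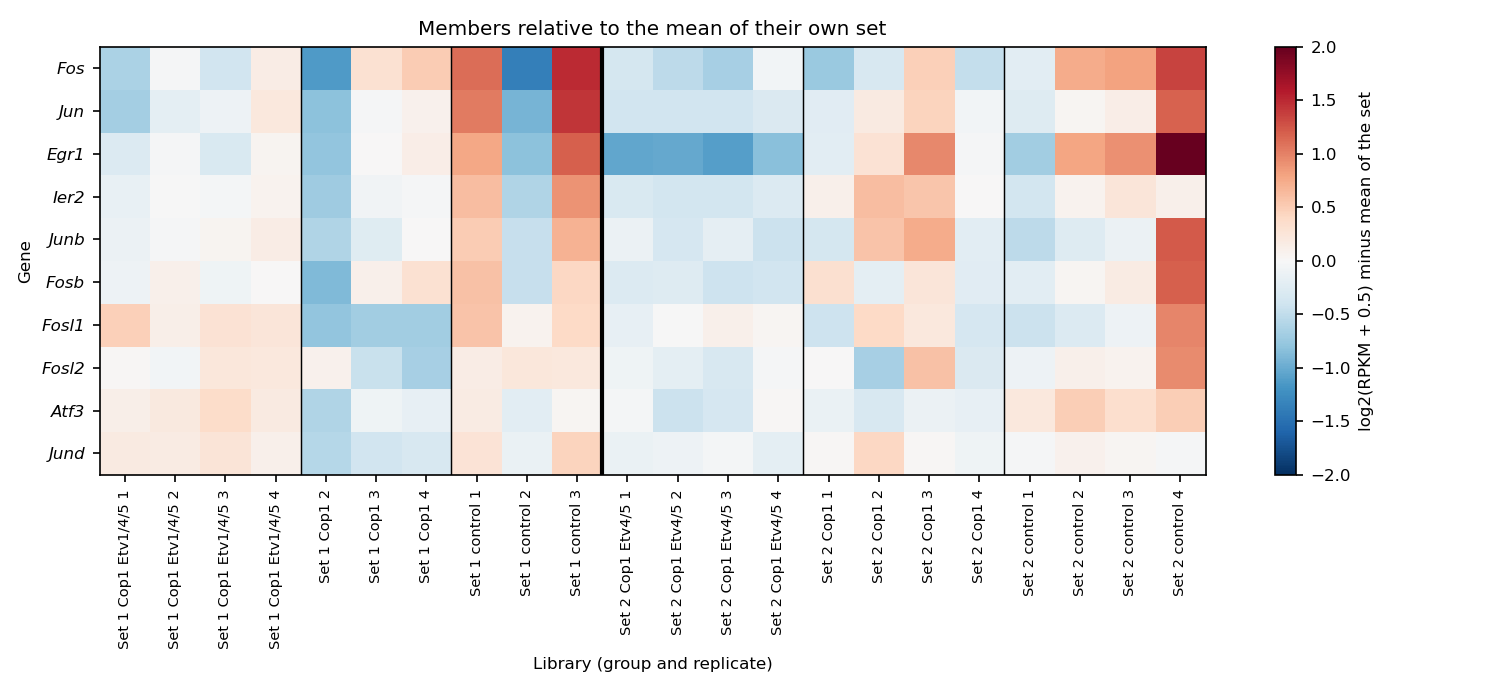
Difference of log2(RPKM + 0.5) from the mean over the libraries of the same set (colour, red above and blue below the mean) for the 10 genes in the 22 libraries, in columns by group and replicate. Of set 1, control replicate 2 and Cop1 deletion replicate 2 are blue for most genes, set 2 control replicate 4 is red for most genes, and Egr1 is blue in the 4 Cop1 Etv4/5 deletion libraries.

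Patterns were compared over the 22 libraries after centring each gene on its set, by the root mean square difference of log2(RPKM + 0.5), in which a smaller value means a closer pattern. Nearest to Jun were Dusp1, a phosphatase of MAP kinases, at 0.108, Zfp36, which destabilizes AU-rich messages, at 0.271, and Btg2 at 0.29, against a root mean square of 0.584 for Jun itself. Nearest to Fos were Jun (0.337), Dusp1 (0.353) and Egr1 (0.444), against 0.754 for Fos itself. Nearest to Egr1 were Fos and Dusp1 (0.444 each) and Jun (0.447), against 0.815. Nearest to Ier2 was Zfp36 (0.221, against 0.396 for Ier2 itself), and to Junb the ubiquitin editor Tnfaip3 (0.217, against 0.462). Jund was nearest to Josd2 (0.093, against 0.239 for Jund itself), Atf3 to Mafg (0.169, against 0.286) and Fosb to Xrcc3 (0.213, against 0.418). Fosl2 was nearest to 0610040F04Rik (0.191, against 0.358) and Fosl1 to Ccdc85b (0.201, against 0.436). In the RefSeq annotation the spans of Fosl1 and Ccdc85b overlap and the other 9 genes overlap no other gene. How reads were assigned by strand is not given in the sources used here, so the values of these 2 genes may share reads and those of Fosl1 are uncertain.

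The first comparison by genotype asks what deletion of Cop1 changes in these messages. In set 1, Jund and Fosl1 were lower after Cop1 deletion than in controls, 2 of the 10 genes, against 4.29% of all tested genes called lower. No gene of the 10 was higher, against 4.04% of all genes, and the fitted log2 fold change was below 0 for 10 of 10 genes, with a median of -0.56 against -0.006 over all genes. In set 2, Atf3 was lower, 1 of 10 genes, against 9.75% of all tested genes, and 7 of the 10 fold changes were below 0 (median -0.23, against -0.017 over all genes). With the sets averaged, Atf3, Fosl1 and Jund were lower, 3 of 10, against 10.5% of all tested genes, and 10 of 10 fold changes were below 0. Single libraries were high or low in many of the 10 genes at once, so these signs are not independent of each other.

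Among the Jun genes, Jund was at 277, 318 and 329 RPKM in Cop1 deletion and 500, 378 and 560 RPKM in control libraries of set 1. The groups did not overlap, as was so, with the deletion lower, for 15.3% of all tested genes. Jund averaged 308 ± 27.2 RPKM in Cop1 deletion and 479 ± 93 RPKM in control (SD, n = 3 each), a log2 fold change of -0.62 (SE 0.121, limma adjusted p = 0.0027), and it stayed called in 33 of 33 alternatives. In set 2, Jund was at 55.2, 72.1, 55.2 and 50.9 RPKM in Cop1 deletion and 53.2, 57.1, 55.5 and 53.3 RPKM in control libraries, which overlapped, and the log2 fold change was 0.08 (SE 0.105, adjusted p = 0.64). The difference between the sets in this response was -0.70 (SE 0.161, limma adjusted p = 0.023), against 2.83% of all tested genes called in either direction, and Jund was the 1 gene of the 10 called. It was no longer called without set 1 control replicate 1 (adjusted p = 0.073), control replicate 3 (0.059) or Cop1 deletion replicate 2 (0.076). Ier2 was called too without set 1 control replicate 2 (-1.34, limma adjusted p = 0.0081), and Fosl1 without set 2 control replicate 4 (-1.30, adjusted p = 0.0035). The mean of both sets for Jund, -0.27 (SE 0.08, limma adjusted p = 0.021), was likewise not called without these 3 libraries in turn (adjusted p = 0.056, 0.071 and 0.068).

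Jun, which forms the most studied AP-1 dimers, was at 277, 482 and 521 RPKM in Cop1 deletion and 1005, 258 and 1329 RPKM in control libraries of set 1. The low control is the library with high Esr1, the other 2 controls lay above every Cop1 deletion library, and the log2 fold change was -0.77 (SE 0.443, limma adjusted p = 0.37). Without that library it was -1.49 (SE 0.338, adjusted p = 0.0098). Junb, a Jun family member that can counteract Jun, was at 324, 415 and 497 RPKM in Cop1 deletion and 700, 358 and 801 RPKM in control libraries of set 1, a log2 fold change of -0.53 (SE 0.368, adjusted p = 0.48) and, without the library with high Esr1, of -0.88 (adjusted p = 0.19). In set 2, Jun was at 15.6, 20.7, 25 and 17.6 RPKM in Cop1 deletion and 15.3, 18.8, 20.2 and 42.1 RPKM in control libraries, and Junb at 44.3, 84.6, 95.2 and 48.9 RPKM against 39.1, 47.2, 52.1 and 133 RPKM. Both overlapped between the groups, with log2 fold changes of -0.19 and 0.11 (adjusted p = 0.76 and 0.84).

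Among the Fos genes, Fosl1, which encodes FRA1, was at 8.93, 9.5 and 9.56 RPKM in Cop1 deletion and 23.6, 16.5 and 20.8 RPKM in control libraries of set 1. These groups did not overlap, and Fosl1 averaged 9.33 ± 0.346 RPKM in Cop1 deletion and 20.3 ± 3.6 RPKM in control (SD, n = 3 each). The log2 fold change was -1.07 (SE 0.264, limma adjusted p = 0.015), and it was not called without set 1 control replicate 1 (-0.95, adjusted p = 0.077) or Cop1 deletion replicate 2 (-1.04, adjusted p = 0.057). Ccdc85b, whose span overlaps Fosl1, averaged 8.38 ± 0.219 RPKM in Cop1 deletion and 14.8 ± 0.403 RPKM in control of set 1, a log2 fold change of -0.78 (SE 0.144, adjusted p = 0.0015), so the part of shared reads in the Fosl1 result was not tested. In set 2, Fosl1 was at 3.11, 5.81, 5.06 and 3.3 RPKM in Cop1 deletion and 3.08, 3.47, 3.96 and 8.94 RPKM in control libraries, with overlap and a log2 fold change of -0.08 (SE 0.229, adjusted p = 0.84). The mean of both sets was -0.57 for Fosl1 (SE 0.175, limma adjusted p = 0.026) and -0.32 for Ccdc85b (SE 0.095, adjusted p = 0.023). The Fosl1 mean was not called with libraries scaled to equal total RPKM (adjusted p = 0.054), nor without set 1 control replicate 1 (0.07), control replicate 3 (0.051) or Cop1 deletion replicate 2 (0.055).

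Fos and Fosb, whose levels by library stand above, had log2 fold changes of -0.53 (SE 0.566) and -0.33 (SE 0.321) in set 1 (limma adjusted p = 0.71 and 0.66). Without set 1 control replicate 2, Fos was at -1.41 (adjusted p = 0.064), and Fosb at -0.65 (adjusted p = 0.28), neither of them called. For Fos, all 3 Cop1 deletion libraries lay above that control and below the other 2. In set 2, Fos was at -0.94 (SE 0.49, adjusted p = 0.19) and Fosb at -0.26 (SE 0.278, adjusted p = 0.54). Most set 2 values of Fosb lay near the 0.5 added before the log, so its fold change there is understated. Without the same control, the mean of both sets was called for Fos, at -1.17 (limma adjusted p = 0.0076), and for Jun, at -0.84 (adjusted p = 0.01). Fosl2, which encodes FRA2, was at 42.9, 29.3 and 25.4 RPKM in Cop1 deletion and 44.8, 47.3 and 46.8 RPKM in control libraries of set 1, which did not overlap, with a log2 fold change of -0.54 (SE 0.262, limma adjusted p = 0.26), or -0.52 (adjusted p = 0.37) without control replicate 2. In set 2 it was at 17.6, 10.8, 26.5 and 14.2 RPKM in Cop1 deletion and 16.3, 18.8, 18.5 and 34.4 RPKM in control libraries, which overlapped. The mean of both sets for Fosl2 was -0.44 (SE 0.173, limma adjusted p = 0.079); it was called without set 2 Cop1 deletion replicate 3 (-0.56, adjusted p = 0.015) or set 1 Cop1 deletion replicate 2 (-0.55, adjusted p = 0.04).

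Atf3, a bZIP factor that is induced by stress and often represses, was at 6.44, 5.61, 6.52 and 6.33 RPKM in Cop1 deletion and 8.32, 10.2, 9.13 and 10.3 RPKM in control libraries of set 2. Every deletion library lay below every control, as was so for 8.43% of all tested genes. Atf3 averaged 6.22 ± 0.417 RPKM in Cop1 deletion and 9.49 ± 0.944 RPKM in control (SD, n = 4 each), a log2 fold change of -0.57 (SE 0.119, limma adjusted p = 0.0025), and it stayed called in 33 of 33 alternatives. Xist was at 51.6 to 62.9 RPKM in the 4 controls. In Cop1 deletion it was at 74.2 and 48.3 RPKM in replicates 1 and 4 and at 0.0627 and 0.0345 RPKM in replicates 2 and 3. The part of this difference in the Atf3 result was not tested. Summed immune markers lay between 178 and 226 RPKM in Cop1 Etv4/5 deletion, between 202 and 494 RPKM in Cop1 deletion and between 80.1 and 156 RPKM in control libraries of set 2, with no overlap between the deletions and control. Summed ductal markers lay between 1410 and 3003 RPKM in Cop1 Etv4/5 deletion, between 3088 and 4828 RPKM in Cop1 deletion and between 1457 and 1891 RPKM in control. For Cop1 deletion in set 2, 4 of 9 ductal and 2 of 11 immune markers were higher and none lower, and 4 of 8 beta cell markers were lower and 1 higher; the part of these shifts in the Atf3 result was not tested. In set 1, Atf3 was at 234, 336 and 316 RPKM in Cop1 deletion and 398, 305 and 364 RPKM in control libraries, with overlap and a log2 fold change of -0.28 (SE 0.137, adjusted p = 0.26), or -0.38 (adjusted p = 0.13) without control replicate 2. The difference between the sets was 0.29 (SE 0.181, limma adjusted p = 0.43), and their mean was -0.42 (SE 0.091, adjusted p = 0.0024), called in 32 of 32 alternatives.

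Egr1, a zinc finger factor, was at 248, 431 and 469 RPKM in Cop1 deletion and 733, 243 and 979 RPKM in control libraries of set 1. In set 2 it was at 10.5, 15.1, 24.4 and 12 RPKM in Cop1 deletion and 7.35, 21.4, 23.4 and 50.9 RPKM in control libraries. The groups overlapped in both sets, and the log2 fold changes were -0.60 (SE 0.513) and -0.50 (SE 0.444), not called (limma adjusted p = 0.6 and 0.46). Without the control with high Esr1, Egr1 was at -1.20 in set 1 (SE 0.498, limma adjusted p = 0.17), also not called. Ier2, a nuclear immediate early protein, was at 75.1, 118 and 121 RPKM in Cop1 deletion and 189, 81.3 and 232 RPKM in control libraries of set 1, a log2 fold change of -0.57 (SE 0.275, limma adjusted p = 0.25). Without the control with high Esr1, Ier2 was at -1.03 (SE 0.206, limma adjusted p = 0.0039). Leaving that library out thus gave 4 of 10 genes lower in set 1 (Jun, Jund, Fosl1 and Ier2), where 7.87% of all genes were called in either direction. In set 2, Ier2 was at 20.4, 29.4, 28.3 and 19.1 RPKM in Cop1 deletion and 14.6, 20, 22.5 and 20.3 RPKM in control libraries, with overlap and a log2 fold change of 0.31 (SE 0.238, adjusted p = 0.38).

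**Figure D4:**
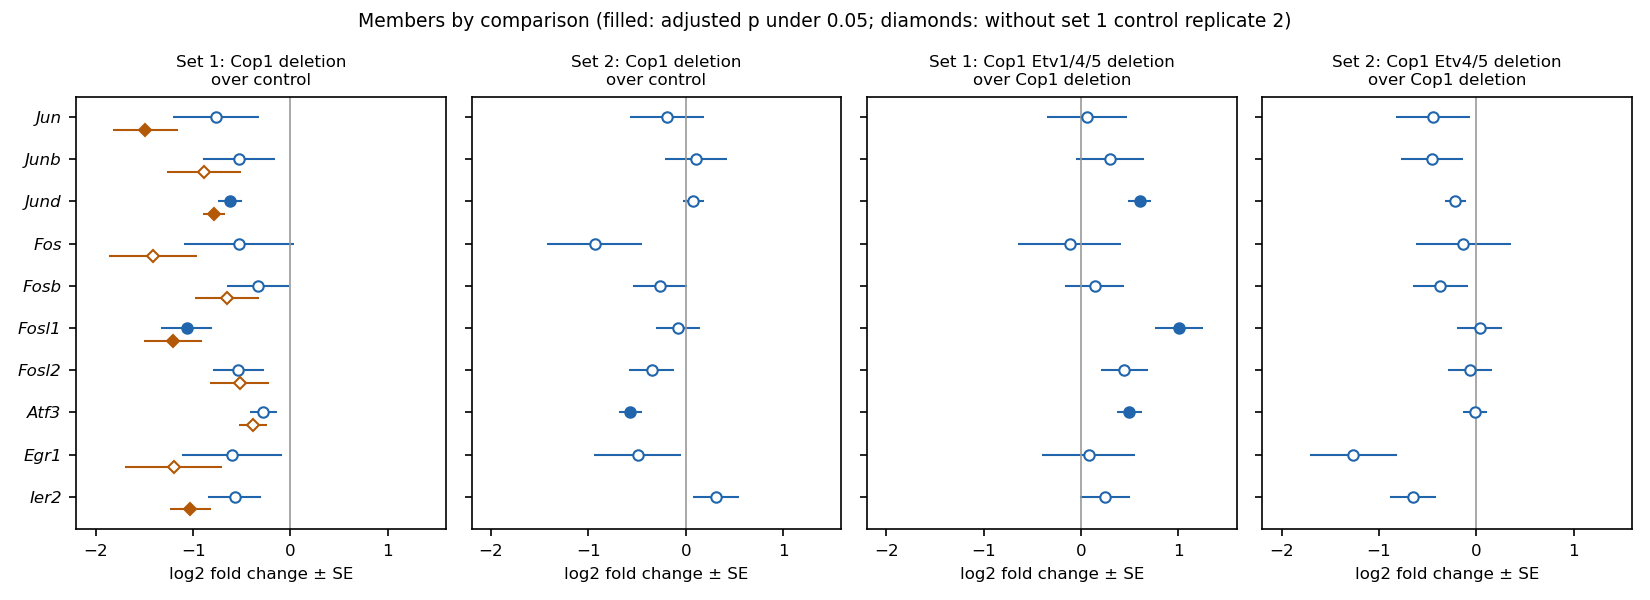
Log2 fold change with its standard error (horizontal axis) of the 10 genes in 4 comparisons: Cop1 deletion over control and Etv deletion over Cop1 deletion, in set 1 and in set 2; filled points passed an adjusted p of 0.05 and diamonds leave out set 1 control replicate 2. In set 1, Jund and Fosl1 lie below 0 after Cop1 deletion (-0.62 and -1.07) and above 0 in the Etv comparison (0.60 and 1.01), and Jun is at -1.49 after Cop1 deletion without the library, beside -0.77 with it.

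The second comparison asks which of these messages differ when Etv genes are deleted along with Cop1. In set 1, Jund, Fosl1 and Atf3 were higher in Cop1 Etv1/4/5 deletion than in Cop1 deletion, 3 of 10 genes, against 3.65% of all tested genes called higher, and the median over the 10 genes was 0.27 (0.002 over all genes). Jund was at 471, 462, 494 and 442 RPKM in Cop1 Etv1/4/5 deletion, all above the 3 Cop1 deletion libraries, as was so for 16.6% of all tested genes. This comparison shares its Cop1 deletion libraries with the one above. Jund averaged 467 ± 21.6 RPKM (SD, n = 4) against 308 ± 27.2 RPKM in Cop1 deletion (SD, n = 3), a log2 fold change of 0.60 (SE 0.114, limma adjusted p = 0.0023), and stayed called in 33 of 33 alternatives. Fosl1 was at 22.1, 17.2, 19.3 and 18.7 RPKM in Cop1 Etv1/4/5 deletion, again above the 8.93 to 9.56 RPKM of Cop1 deletion, with a log2 fold change of 1.01 (SE 0.247, limma adjusted p = 0.017). Fosl1 was not called without Cop1 deletion replicate 2, 3 or 4 or without Cop1 Etv1/4/5 deletion replicate 1 (adjusted p = 0.067, 0.058, 0.058 and 0.054). Ccdc85b averaged 15.1 ± 0.718 RPKM (SD, n = 4) in Cop1 Etv1/4/5 deletion and was also higher than in Cop1 deletion, by 0.81 on the log2 scale (SE 0.135, limma adjusted p = 0.00081). Atf3 was at 385, 404, 457 and 404 RPKM in Cop1 Etv1/4/5 deletion, above the 234 to 336 RPKM of Cop1 deletion, with a log2 fold change of 0.50 (SE 0.128, limma adjusted p = 0.023). It was not called with equal total RPKM (0.35, adjusted p = 0.11), nor without Cop1 deletion replicate 2 (0.34, adjusted p = 0.17) or Cop1 Etv1/4/5 deletion replicate 3 (0.45, adjusted p = 0.074).

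The other 7 genes were not called in that comparison, and their log2 fold changes ran from -0.11 for Fos to 0.45 for Fosl2. Jun was at 307, 428, 456 and 568 RPKM, Junb at 454, 487, 512 and 548 RPKM and Egr1 at 353, 421, 346 and 445 RPKM in Cop1 Etv1/4/5 deletion. Ier2 was at 112, 123, 121 and 130 RPKM and Fosl2 at 41.2, 39, 47.3 and 46.8 RPKM in the same libraries. Each of these overlapped the Cop1 deletion libraries. Against controls of set 1, 0 of the 10 genes were called in Cop1 Etv1/4/5 deletion by limma, 0 had an unadjusted p below 0.05, and 1.32% of all tested genes were called. Without set 1 control replicate 2, Jun (-1.43, SE 0.321, limma adjusted p = 0.022) and Ier2 (-0.79, SE 0.195, adjusted p = 0.04) were lower than in the other 2 controls, against 2.5% of all genes called. Fos (-1.53, adjusted p = 0.072) and Egr1 (-1.12, adjusted p = 0.29) were not called without that library, and were at -0.64 and -0.52 with it. Jund was at -0.02 and Fosl1 at -0.06 on the log2 scale against the 3 controls (adjusted p = 1 for both).

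In set 2, 0 of the 10 genes were called by limma in Cop1 Etv4/5 deletion against Cop1 deletion, where 1.73% of all tested genes were, and 2 had an unadjusted p below 0.05, Egr1 and Ier2. Egr1 was at 5.67, 5.75, 5.41 and 6.61 RPKM in Cop1 Etv4/5 deletion, below each of the 10.5 to 24.4 RPKM in Cop1 deletion, as was so for 6.59% of all tested genes. Its log2 fold change was -1.26 (SE 0.444, limma adjusted p = 0.13). Ier2 was at 15.4, 14.6, 14.7 and 15.6 RPKM in Cop1 Etv4/5 deletion, below each of the 19.1 to 29.4 RPKM in Cop1 deletion, with a log2 fold change of -0.65 (SE 0.238, limma adjusted p = 0.14); without set 1 control replicate 2, which enters through the shared spread, Ier2 was called (adjusted p = 0.045). Jun was at 13.9, 13.9, 13.9 and 14.8 RPKM in Cop1 Etv4/5 deletion, also below every Cop1 deletion library, with a log2 fold change of -0.44 (adjusted p = 0.49). So did Fosb lie, at 0.335 to 0.427 RPKM against 0.45 to 0.884 RPKM, with a log2 fold change of -0.37 (limma adjusted p = 0.42). The log2 fold change was below 0 for 9 of the 10 genes, with a median of -0.29 against 0.01 over all genes. These signs are not independent of each other. Jund was at 49, 50.5, 52.7 and 47.2 RPKM in the same libraries, with overlap and a log2 fold change of -0.21 (adjusted p = 0.23).

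Against controls of set 2, Atf3 and Egr1 were lower in Cop1 Etv4/5 deletion, 2 of 10 genes, against 3.75% of all tested genes called lower. By limma, 4 genes had an unadjusted p below 0.05: Atf3, Egr1, Fos and Fosb. The log2 fold change was below 0 for 10 of 10 genes, with a median of -0.50 against -0.009 over all genes. These signs are not independent of each other. Atf3 was at 6.93, 5.14, 5.56 and 7.24 RPKM in Cop1 Etv4/5 deletion, below the 8.32 to 10.3 RPKM of the controls, as was so for 10.6% of all tested genes. Its log2 fold change was -0.58 (SE 0.119, limma adjusted p = 0.0037), called in 33 of 33 alternatives, beside -0.57 in Cop1 deletion against the same controls. Egr1 averaged 5.86 ± 0.52 RPKM in Cop1 Etv4/5 deletion and 25.8 ± 18.2 RPKM in control (SD, n = 4 each), without overlap, a log2 fold change of -1.76 (SE 0.444, limma adjusted p = 0.017). It was not called without set 2 control replicate 4 (-1.34, adjusted p = 0.052) or with each set fitted alone (-1.76, adjusted p = 0.051). Jun, Jund and Fosb also lay below every control, with log2 fold changes of -0.636, -0.135 and -0.629, and were not called. Junb was at 51.9, 44.6, 50 and 42 RPKM, Fosl1 at 3.81, 4.29, 4.68 and 4.46 RPKM and Fosl2 at 16.4, 15.2, 14 and 17.3 RPKM in Cop1 Etv4/5 deletion, and none of these 3 was called.

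The step from Cop1 deletion to Cop1 with Etv deletion was set side by side between the sets, in which the Etv alleles differ. By limma, Jund alone of the 10 genes was called, with a difference of set 1 minus set 2 of 0.82 (SE 0.155, adjusted p = 0.0063), against 2.34% of all tested genes called higher. The difference was above 0 for 10 of 10 genes, with a median of 0.63 against -0.010 over all genes. As the 10 genes moved together in single libraries, their signs are not separate observations. Fosl1 was at 0.97 (SE 0.337, adjusted p = 0.11), Atf3 at 0.51 (SE 0.175, adjusted p = 0.11) and Egr1 at 1.34 (SE 0.654, adjusted p = 0.26), none of them called. Ccdc85b, which overlaps Fosl1, was at 0.93 (adjusted p = 0.0082). Fosl1 was called without set 2 control replicate 4 (0.97, adjusted p = 0.014) and Ier2 without set 1 control replicate 2 (0.89, adjusted p = 0.038).

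Other genes of the pathway were counted from lists in the same fits. After Cop1 deletion, averaged over the sets, 9 of 21 tested AP-1 partners and related bZIP factors were lower and 0 higher (median -0.242), where 10.5% of all genes were lower and 9.57% higher. The small Maf factor Mafg was at -0.50 (SE 0.076, limma adjusted p = 0.00011), the repressor Nfil3 at -0.41, Jdp2, a Jun partner that represses, at -0.38 and Creb1, which binds the cyclic AMP response element, at -0.36. Without set 1 control replicate 2, 6 of the 21 were lower, against 1360 of the 14327 genes tested in that fit. In set 1, Mafg, the gene nearest to Atf3 in pattern, averaged 22.9 ± 0.278 RPKM in Cop1 Etv1/4/5 deletion (SD, n = 4), 14.1 ± 0.668 RPKM in Cop1 deletion and 21.6 ± 0.269 RPKM in control (SD, n = 3 each). Of this list, 4 of 21 were higher in Cop1 Etv1/4/5 deletion than in Cop1 deletion and 0 lower, against 3.65% and 2.69% of all genes: Cebpb at 0.78, Maff at 0.76, Mafg at 0.68 and Jdp2 at 0.40. In set 2, 0 of 21 were called in Cop1 Etv4/5 deletion against Cop1 deletion; Atf4 and Ddit3, the 2 with the highest mean RPKM over the libraries of both sets, had log2 fold changes of 0.05 and 0.41 (adjusted p = 0.79 and 0.21).

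Of the 38 other immediate early genes, 5 were higher and 7 lower after Cop1 deletion averaged over the sets (median -0.189). Of all tested genes, 9.57% were higher and 10.5% lower. Plk2, a stress-induced kinase, rose by 0.98 (SE 0.104, limma adjusted p = 2e-06) and Trib1, a pseudokinase that recruits COP1 to its substrates, by 0.58, while Nr4a1 was at -0.89 and Srf at -0.39. In set 1, 1 of the 38 was higher and 9 lower, against 4.04% and 4.29% of all genes. Without control replicate 2, 1 was higher and 15 lower, where 7.87% of all genes were called in either direction. In set 2, 6 were higher and 1 lower, where 9.09% and 9.75% of all genes were. The difference between the sets was called for 8 of the 38, each lower in set 1 than in set 2 (1.83% of all genes were), among them Trib1 (-1.25), Klf10 (-1.01), Ier5 (-0.88) and Srf (-0.66). Srf averaged 117 ± 5.36 RPKM in Cop1 Etv1/4/5 deletion (SD, n = 4), 65.9 ± 4.77 RPKM in Cop1 deletion and 109 ± 11.4 RPKM in control of set 1 (SD, n = 3 each), and rose by 0.83 in the Etv comparison of set 1 (SE 0.095, limma adjusted p = 2.6e-05). Plk2 was lower in that comparison, at -1.05, and in set 2 the comparison called 2 of 38 lower, Nfkbiz (-0.71) and Ier5 (-0.34), against 1.05% of all genes.

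Among the 23 upstream kinases and cofactors, 2 were higher and 5 lower after Cop1 deletion averaged over the sets. Of all tested genes, 9.57% were higher and 10.5% lower in this comparison. The called genes of the list were led by the ETS-family cofactors of SRF, Elk3 (0.46) and Elk1 (-0.30), and by the CREB coactivator Crtc1 (-0.26). Of 17 tested AP-1 target genes, 1 was higher and 1 lower; the one that was lower was the angiogenic factor Vegfa (-0.36). Of 10 heat shock genes, 4 were lower, among them the mitochondrial chaperones Hspd1 (-0.48) and Hspe1 (-0.40). Without set 1 control replicate 2, 5 of the 10 were lower, against 1360 of the 14327 genes tested in that fit. In Cop1 Etv1/4/5 deletion against control, 6 of 10 heat shock genes were lower, against 0.418% of all genes, and none of the AP-1 genes was called. Markers of cell types were counted for Cop1 deletion against control averaged over the sets. Of these, 3 of 9 ductal and 1 of 11 immune markers were higher and none of either list lower, 4 of 8 beta cell markers were lower and 1 higher, 1 of 8 other endocrine markers was higher and 1 lower, and 0 of 11 acinar and 0 of 11 endothelial and stromal markers were called. In set 1, the summed beta cell markers were 264390 to 297687 RPKM in Cop1 Etv1/4/5 deletion, 216699 to 237611 RPKM in Cop1 deletion and 263056 to 297739 RPKM in control, with Cop1 deletion lowest, as for Jund and Fosl1. Their part in the results for the AP-1 genes was not tested.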

How the data were processed

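RNA was sequenced from islets of 24 samples, and the values are RPKM per gene in 1 table deposited by the authors, on mm9, a genome build named in the submitters' processing notes. Which aligner, counter and strand setting they used is not given in the sources used here. Of 24 columns, 22 were tied to 1 sample by the number in its title; 2 were not used. The replicate numbers follow the order of the samples, and the labels do not say whether libraries came from separate mice, so p-values measure the spread between libraries, which may be technical.

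Genes at 1 RPKM or more in at least 4 libraries were tested (14342 of 28059). limma 3.58.1 in R 4.3.3, with trend and robust variance, fitted 6 group means to log2(RPKM + 0.5), which understates fold changes of low genes. Contrasts were 2-sided, with Benjamini-Hochberg adjustment over all genes tested; under 0.05 a gene is called. The fit was tested on simulated data. RPKM is not a count, so no count model was used. Relative depth came from the most common ratio of low RPKM values (under 0.1) between libraries. Symbols, promoters and gene overlaps are from RefSeq GRCm38.p6; 24998 of 28059 genes had a symbol.

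The 10 genes and all lists were chosen with earlier results of these data known. From each other list, at most 4 called genes with the smallest adjusted p are named per comparison, or else the 2 of highest mean RPKM; for likeness, the 3 nearest genes were ranked. Alternatives covered pseudocount, filter, scaling, fit, library weights and leaving out each library. The result of 1 gene among the AP-1 targets is not reported here.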

Additional observations from a re-analysis of the deposited data

Results flagged for a closer look

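Over 40 tests, 1 for each gene in each group of 4 libraries, 4 values stood apart from their replicates by Dixon's criterion at 95%, which chance passes in about 1 of 20 groups. Of these, 3 were in set 2 control replicate 4: Junb at 133 RPKM, Fosl1 at 8.94 RPKM and Fosl2 at 34.4 RPKM, each the highest of the 4 controls. The fourth was Jun in set 2 Cop1 Etv4/5 deletion replicate 4, at 14.8 RPKM, where the other 3 libraries were all at 13.9 RPKM. Without set 2 control replicate 4, the log2 fold change of Egr1 in Cop1 Etv4/5 deletion against control was -1.34 (limma adjusted p = 0.052), against -1.76 with it.

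The response of Jund differed between the sets by a test of the difference itself. Cop1 deletion against control was -0.70 lower on the log2 scale in set 1 than in set 2 (limma adjusted p = 0.023), and Etv deletion with Cop1 deletion against Cop1 deletion was 0.82 higher (limma adjusted p = 0.0063). Both differences share the Cop1 deletion libraries of each set, so they are not independent of each other.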

How the results depend on the processing

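No paired analysis was possible because the replicate numbers only follow the order of the samples and the columns carry none. Over the alternatives, 10 of 10 genes were higher in set 1 controls than in set 2 controls in each, while the median of all genes ran from -0.262 with equal total RPKM to -0.002 with TMM scaling. No call of a gene of the 10 changed sign while called. With array weights, which weigh down outlying libraries, genes called and, in brackets, those among the 10 were 6259 (9) for Cop1 deletion against control in both sets, 5429 (7) in set 1, 5035 in set 2 and 3872 (5) for their difference. They were 3712 and 3217 (3) for Etv1/4/5 and Etv4/5 against Cop1 deletion, 3022 (3) and 4766 against control and 3737 (3) for the difference of the steps. With each set fitted alone, Cop1 deletion called 2112 genes in set 1 and 1469 in set 2, Etv against Cop1 deletion 1704 and 0, and Etv4/5 against control 664 (1). Without set 2 Cop1 deletion replicates 2 and 3 the same 4 comparisons called 2061, 1585, 1691 and 44, and Etv against control 330 in set 1 and 2231 in set 2. With equal total RPKM, 1628 genes were called in the Etv1/4/5 step and 610 in the difference of Cop1 responses, and leaving Ins1 and Ins2 out of that total gave 4681 in set 2. Equal total RPKM also moved the split of higher and lower genes after Cop1 deletion to 1122 and 256 in set 1, 840 and 1636 in set 2 and 1489 and 839 in both, against 580 and 615, 1303 and 1399, and 1372 and 1505. The cause was not tested.

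Leaving out each library in turn gave 2272 to 3393 genes and 1 to 5 of the 10 for both sets, 718 to 1890 and 1 to 4 for set 1, 218 to 843 and 0 to 2 for the difference, and 1933 to 3411 with 1 gene for set 2. It gave 542 to 1516 and 1 to 3 for the Etv1/4/5 step, 15 to 767 and 0 to 1 for the Etv4/5 step, 91 to 358 and 0 to 2 for Etv1/4/5 against control, and 801 to 1997 and 1 to 2 for Etv4/5 against control. For the difference of the steps it gave 301 to 985 and 1 to 2. Set 1 libraries had at most 0.525 of the depth of the deepest library, so a given RPKM value rests on fewer reads there.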
